A study of Mus musculus with 4 samples.

Results

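The genes described here encode 10 basic leucine zipper (bZIP) transcription factors, Batf, Batf3, Jun, Junb, Jund, Fos, Fosl2, Bach1, Bach2 and Maf, and the data are the accessible chromatin regions that lay nearest to them. A region was given to the protein-coding gene whose span was closest, and ties went to the gene with the nearer end. By this rule 198 of 91266 accessible regions belonged to the 10 genes. The regions came from ATAC-seq, which marks open chromatin by where a transposase can cut, of mouse splenic natural killer (NK) cells, cytotoxic innate lymphocytes whose survival requires interleukin-15 (IL-15). All 4 samples were wild-type C57BL/6 cells cultured for 72 h, 2 labelled HD IL-15 (high dose) and 2 labelled LD IL-15 (low dose), with about 75000 cells put into each reaction. The doses themselves, the age of the mice and whether replicates came from separate mice are not given in the labels.

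AP-1 is a family of dimers between JUN and FOS proteins that bind TGAGTCA or TGACTCA. It is switched on by signals from antigen and cytokine receptors. The wider form TGANTCA, with any base in the centre, was searched here and is called the AP-1 motif. BATF and BATF3 pair with JUN proteins and, at composite elements, bind beside the interferon regulatory factors IRF4 and IRF8. BACH1 and BACH2 are repressors that pair with small MAF proteins and can occupy sites that AP-1 also binds, and BACH2 is known for restraining effector differentiation of lymphocytes. MAF, or c-MAF, is a large MAF protein that regulates cytokine genes in lymphocytes.

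The deposited tables give 1 list of regions for the whole series and the authors' own calls of regions that differed between the doses, in a list named up and a list named down, with 0 columns of values per sample. No value therefore carries a replicate error, sequencing depth is unknown, and the authors' calls are only counted here. Which dose was the reference is not stated in the sources used here, so neither list is assigned to a dose. A bulk assay also cannot tell fewer cells with an open site from less opening per cell. An accessible region lay in or within 1 kb of all 10 NK marker genes examined, of 5 of 6 T cell markers (none at Cd8b1), of 2 of 5 B cell markers and of 2 of 5 myeloid markers (none at Lyz2, Adgre1 or Mpo).

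Accessible regions at the start sites were examined first. RefSeq start sites, with 250 bases before and 50 bases after the start, were at hand for 9 of the 10 genes, all but Maf. In 7 of the 9 a region overlapped this window, and 0 of these 7 regions were up or down. Batf3 and Bach2 had no region over the window. The RefSeq start of Bach2 used here lies 179 kb inside the gene span, so its window is not at the outer 5′ end of the gene. Over all RefSeq promoter windows a region overlapped 41.6%, and among the overlapping windows 0.973% met an up region and 0.322% a down region. The sequence upstream of the start is shown for 4 genes whose 250 upstream bases lay wholly inside an unlisted region, 5′ to 3′ on the strand of the gene (RefSeq, GRCm38.p6). Capitals mark TGACNTCA, TGACG and GGGCGG on either strand, motifs added after the fixed ones had been searched.

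Jun: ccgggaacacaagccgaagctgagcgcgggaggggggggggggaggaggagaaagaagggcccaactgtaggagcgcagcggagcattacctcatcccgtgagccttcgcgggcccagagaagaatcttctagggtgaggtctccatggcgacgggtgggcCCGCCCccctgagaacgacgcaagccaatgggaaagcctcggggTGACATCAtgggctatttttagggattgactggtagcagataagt
Fos: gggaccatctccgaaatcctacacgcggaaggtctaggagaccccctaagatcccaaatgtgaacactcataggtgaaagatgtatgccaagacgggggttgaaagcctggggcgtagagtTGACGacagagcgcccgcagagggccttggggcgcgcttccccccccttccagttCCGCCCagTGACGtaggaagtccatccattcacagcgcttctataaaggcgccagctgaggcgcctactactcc
Batf: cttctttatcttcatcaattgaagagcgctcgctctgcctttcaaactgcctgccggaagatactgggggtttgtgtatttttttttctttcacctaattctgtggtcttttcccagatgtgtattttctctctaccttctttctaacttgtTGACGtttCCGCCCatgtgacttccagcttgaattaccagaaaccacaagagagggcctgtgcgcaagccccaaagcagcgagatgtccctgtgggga
Bach1: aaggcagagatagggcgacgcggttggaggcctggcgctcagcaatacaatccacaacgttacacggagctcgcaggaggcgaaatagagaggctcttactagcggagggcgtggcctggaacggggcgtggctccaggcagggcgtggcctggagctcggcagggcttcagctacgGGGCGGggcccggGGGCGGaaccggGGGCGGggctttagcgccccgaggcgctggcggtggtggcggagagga

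These stretches lie at chr4:95052223-95052472 on the minus strand for Jun, chr12:85473640-85473889 for Fos, chr12:85686470-85686719 for Batf and chr16:87698704-87698953 for Bach1, the last 3 on the plus strand. The AP-1 motif TGANTCA was in 0 of the 9 windows, against 7.81% of all 32851 windows, and the cyclic AMP response element TGACGTCA was also in 0, against 1.79%. With 9 windows a share of 0 is compatible with up to 29.9% (Wilson interval, counting error only). Jun held TGACATCA 45 bases before its start, a form of TGACNTCA, which occurred in 8.83% of all windows. The shorter core TGACG, contained in TGACGTCA, began 66 and 129 bases before the start of Fos, 98 bases before that of Batf and 106 bases before that of Junb. It was in 20.8% of all windows and in 31.3% of windows overlapped by a region. Bach1 carried GGGCGG at 3 places in the 73 bases before its start, a motif found in 6 of the 9 windows and in 35.7% of all. Among windows overlapped by a region, as 7 of the 9 were, the share with GGGCGG was 63.9%.

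Accessible regions were unevenly divided among the factors. Bach2 had 66 and Jun 44, together 55.6% of the 198. Bach1 followed with 19, Maf with 18, Fos with 16, Fosl2 with 10 and Batf3 with 9. Jund had 7, Batf 5 and Junb 4. The median over the 16389 protein-coding genes with a region was 3 (interquartile range 2 to 6). Every factor was thus above the typical gene, and Bach2 ranked 16th by number of regions.

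The genes also differed in how much chromatin lies nearer to them than to any other gene. Bach2 spans 348 kb, and Jun, itself 3.19 kb long, is followed by 505 kb without a protein-coding gene, up to Fggy. Maf is 3.64 kb long and lies between Wwox, 351 kb away, and Dynlrb2, 798 kb away. Per 100 kb of the stretch nearest to each gene, Jund had 55 regions and Junb 50.6, both in gene-dense parts of chromosome 8. Jun had 15.1 regions per 100 kb, Bach2 14.3, Fos 14.1 and Bach1 11.3, whereas Maf had 3.11. The median of 13438 genes was 6.85, so that Maf, with many regions in number, was the 1 factor below it.

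Up and down calls fell on 5 of the 10 factors. Of the 198 regions 17 were up, or 8.59% (95% Wilson interval 5.43 to 13.3%), against 4.21% of all regions. Another 4 were down, or 2.02% (0.788 to 5.08%), against 1.40% of all regions. Maf had 7 up regions, Jun and Bach1 4 each, and Bach2 and Fosl2 1 each. Bach2 had 3 down regions and Jun 1. Batf, Batf3, Junb, Jund and Fos had none of either. At least 1 up region was nearest to 16.1% of genes with a region and at least 1 down region to 5.39%. The up share depended on Maf: without it 5.56% of the members' regions were up, close to the share of all regions. It also depended on how regions were given to genes. With the nearest gene of any biotype 4 of 103 regions were up (3.88%), counting regions inside a gene or within 10 kb 3 of 108 (2.78%), and within 50 kb 9 of 207 (4.35%), all close to or below the share of all regions. That share has no distance limit: it includes regions over 10 kb outside genes, of which 6.02% were up. By the nearest RefSeq 5′ end, which Maf lacks, 12 of 189 were up (6.35%), to be set beside the 5.56% without Maf. The down share depended on Bach2, being 0.758% without it.

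**Figure D1:**
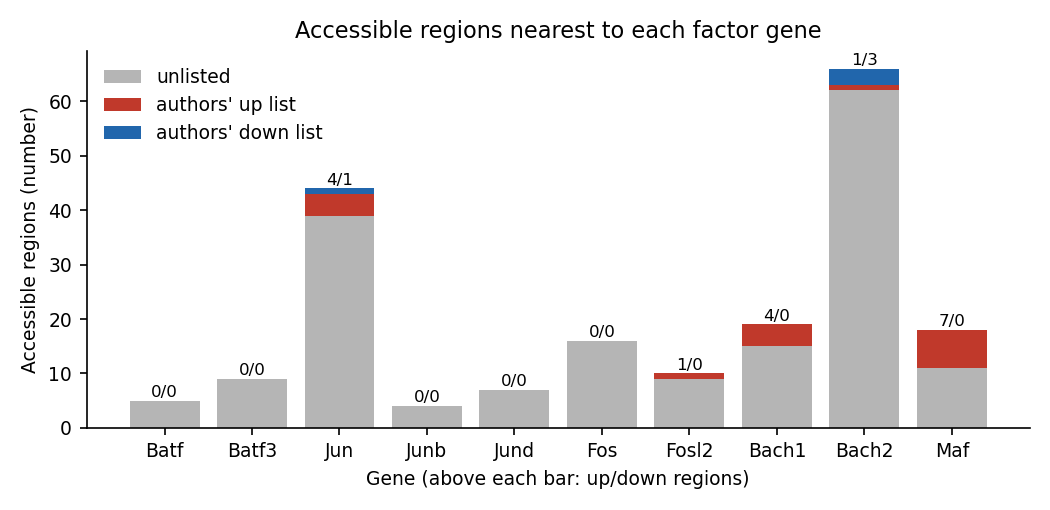
Number of accessible regions nearest to each factor gene, stacked by membership in the authors' lists, with the numbers of up and down regions above each bar. Bach2 has the most regions (66), Maf the most up regions (7 of 18), and Batf, Batf3, Junb, Jund and Fos have none in either list.

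Maf had the most up regions of the 10 factors, in number and as a share of its regions. Of its 18 regions 7 were up, 38.9% (20.3 to 61.4%), and 0 were down, which allows a share of up to 16.7%. All 7 lay outside the gene. At lower coordinates the up regions were chr8:115568430-115568819, chr8:115625126-115625441 and chr8:115652767-115653382, at 134, 77.8 and 49.9 kb from the gene. At higher coordinates they were chr8:115742616-115743030, chr8:115758349-115758677 and chr8:115770874-115771366, at 35.7, 51.5 and 64.0 kb, and chr8:116021743-116022113 at 315 kb. The 3 regions at 35.7, 51.5 and 64.0 kb were consecutive in the full list, with 0 unlisted regions between them and gaps of 15.3 and 12.2 kb. Per 100 kb of the stretch nearest to each gene, Bach1 had 2.39 up regions, Jun 1.38, Maf 1.21 and Fosl2 1.18. All 7 up regions of Maf lay nearer to a long non-coding RNA gene (Gm39256, Gm30712 or Gm31164) than to Maf, so that Maf had 0 up regions when genes of any biotype were used.

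The region at Maf itself was not among them. It measured 2629 bp, the widest of all 198, at chr8:115705813-115708441, and overlapped the higher-coordinate end of the gene. The next region, 1166 bp wide and 19.3 kb away, was also unlisted. The up regions of Maf were narrow by comparison, from 316 to 616 bp with a median of 390 bp. By number of up regions Maf ranked 7th among all genes, and 13 genes had at least 7. Among the 1326 genes with at least 15 regions, a limit chosen after the values were seen, 3 had an up share as high as that of Maf, itself included. The genes most like Maf in numbers of regions, up regions and down regions were Cdkn2b with 19, 7 and 0, Ccny with 16, 7 and 0, and Lrrfip2 with 18, 6 and 0, at distances of 0.0740, 0.160 and 0.193 on a log2(count + 1) scale.

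Jun, the central subunit of AP-1, had up regions on either side and 1 down region. The up regions were chr4:95035367-95035854, 13.2 kb downstream of the gene, and chr4:95105300-95105660, chr4:95128003-95128541 and chr4:95187978-95188503, at 53.1, 75.8 and 136 kb upstream. The down region, chr4:95214931-95215857, was 163 kb upstream and measured 927 bp, wider than the 361 to 539 bp of the up regions. It was 26.4 kb from the nearest up region of Jun, with 7 unlisted regions between them. The up share at Jun was 9.09% (3.59 to 21.2%) and the down share 2.27% (0.402 to 11.8%).

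The other accessible regions of Jun were mostly distant. Of its 44 regions 37 lay upstream, 4 downstream and 3 in the gene, and the farthest was 251 kb away. The 3 regions in the gene, among them the 1006 bp region over the start site, were unlisted. The widest region, of 2008 bp at chr4:95105934-95107941, was unlisted although it lay 273 bp from the up region at 53.1 kb. The up regions at 53.1 and 75.8 kb overlapped Junos, a long non-coding RNA gene.

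The genes of the BACH repressors were each nearest to 4 listed regions. Bach1 had 4 of 19 regions up, 21.1% (8.51 to 43.3%), and 0 down. Of these, chr16:87716427-87716718 and chr16:87724805-87725250 lay inside the gene, 8.09 kb apart with 1 unlisted region between them. The others were chr16:87654757-87655389, 43.6 kb upstream, and chr16:87777389-87777761, 44.0 kb downstream. Both of these lay nearer to a non-coding gene (Gm22808 and Gm32925) than to Bach1. The 4 up regions measured from 292 to 633 bp. The region over the start of Bach1, 1864 bp wide at chr16:87698547-87700410, was in neither list.

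Bach2 had 3 down regions and 1 up region among 66. The down share was 4.55% (1.56 to 12.5%) and the up share 1.52% (0.268 to 8.10%). Inside the gene lay the down regions chr4:32335540-32336383 and chr4:32423607-32424049 and the up region chr4:32391219-32391648. The up region was 32 kb from the second of these down regions and 54.8 kb from the first. Another down region, chr4:32141899-32142388, lay 96.0 kb upstream of the gene, and the listed region nearest to it was a down region of Map3k7, 42.0 kb away. The widest region of Bach2, 1984 bp at chr4:32238292-32240275, overlapped the 5′ end of the gene span and was unlisted. The intervals of the up share of Bach1 and Bach2 did not overlap, and those of the down share did. They cover counting error only, and regions of 1 gene are not replicates. Whether either share differed between the genes was not tested.

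**Figure D2:**
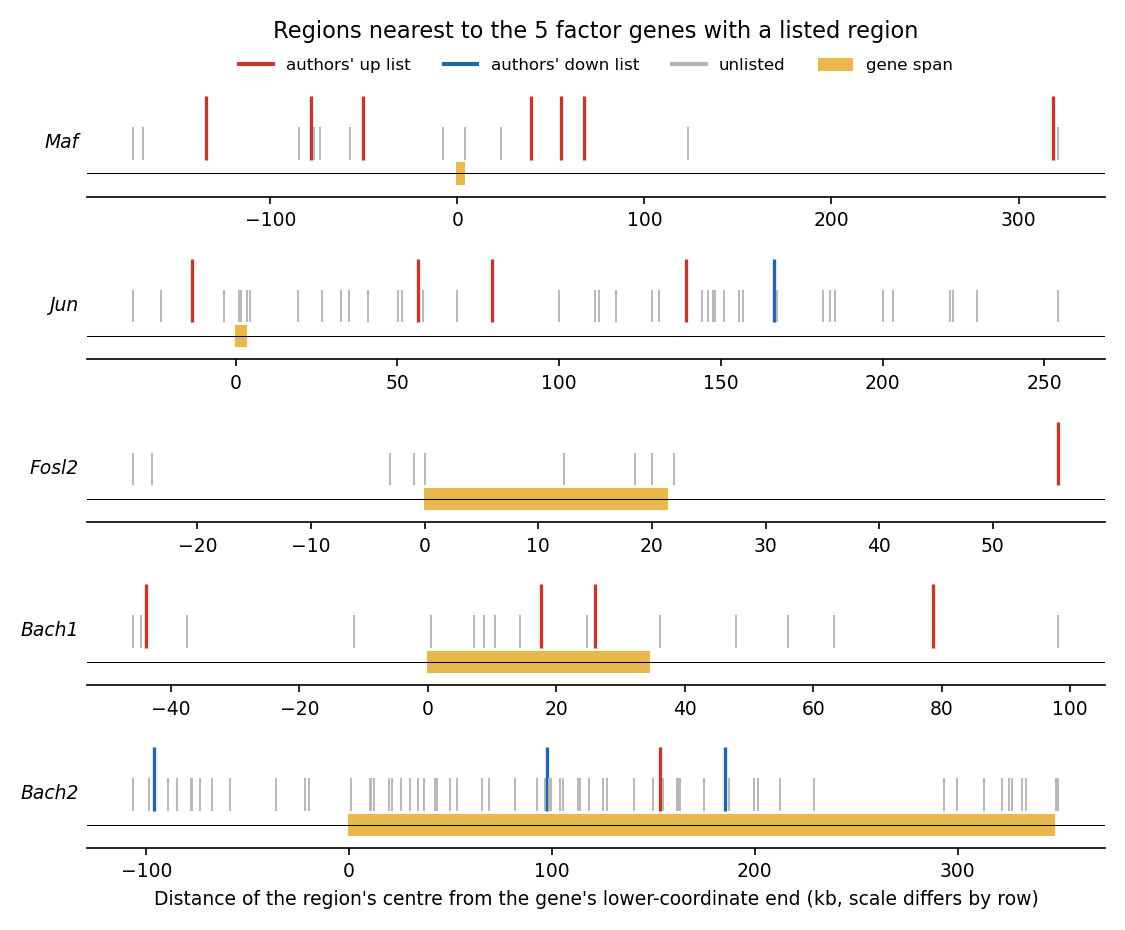
Positions of the regions nearest to Maf, Jun, Fosl2, Bach1 and Bach2 in kb from the lower-coordinate end of each gene span, with tall marks for up and down regions and short marks for unlisted ones. Only Bach1 and Bach2 have listed regions inside the gene, and the 7 up regions of Maf lie on either side of it, from 35.7 to 315 kb away.

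FOS family genes had 1 listed region in 26. It belonged to Fosl2, which encodes FRA-2, and was an up region of 551 bp at chr5:32191972-32192522, 34.1 kb downstream and the farthest of its 10 regions. The 1263 bp region just upstream of Fosl2, the 1073 bp region just downstream and 4 regions inside it were unlisted. Fos, an immediate early gene, had 16 regions between 195 and 895 bp wide, from 45.9 kb upstream to 20.1 kb downstream. None was listed, which allows a share of up to 18.8% in either list.

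Fos, Jdp2 and Batf are neighbours on chromosome 12, and all 3 encode bZIP proteins. Jdp2, a partner of JUN proteins that represses AP-1 targets, is not among the 10 factors but lies between Fos and Batf. The 3 genes had 16, 18 and 5 regions, in a stretch of 285 kb from 85427689 to 85712986. Of these 39 regions 0 were up and 0 were down, which allows a share of up to 7.69%. A share of 0 is therefore not distinguishable from the 4.21% and 1.40% of all regions. The nearest listed region was an up region of Pgf, 281 kb from Fos and 494 kb from Batf. Of the 1326 genes with at least 15 regions, 31.3% had no listed region.

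**Figure D3:**
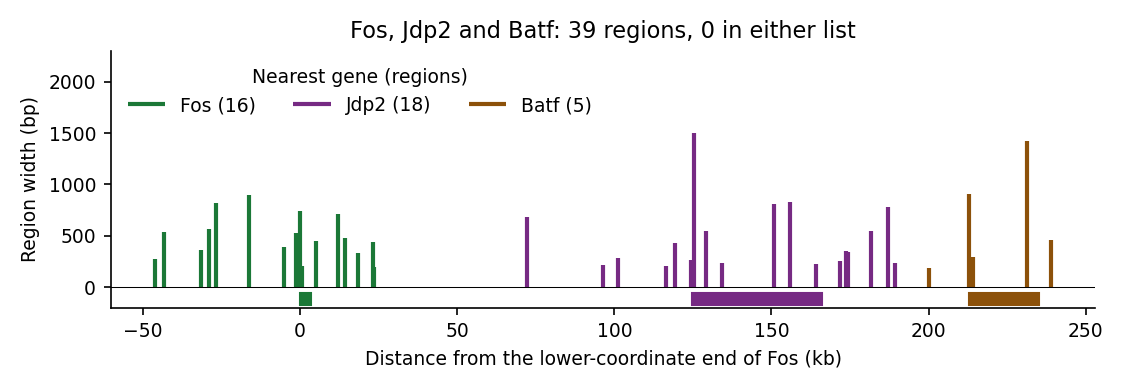
Width in bp of the 39 accessible regions nearest to Fos, Jdp2 or Batf against their distance from the lower-coordinate end of Fos in kb, coloured by nearest gene, with the gene spans as boxes below the axis. Regions occur over 285 kb and none is in the up or down list.

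Batf, Batf3, Junb and Jund also had regions in neither list. Batf had 5, of which the widest, 1420 bp, was inside the gene and another, of 908 bp, covered the start site. Batf3 had 9, with regions of 1077 bp just upstream and 1050 bp downstream. Junb is 1.84 kb long and had 4 regions, from 524 to 906 bp, all within 3.78 kb of the gene. Jund is 2.88 kb long and had 7 regions, the widest of 1186 bp inside the gene. The nearest listed region was 168 kb from Jund, 203 kb from Batf3 and 586 kb from Junb, an up region in each case. With Fos, these genes had 41 regions, for which 0 listed allows a share of up to 7.32%.

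Regions were then divided by their place relative to the gene. Within 1 kb of either end of the assigned gene were 22 of the 198 regions (11.1%), against 16.9% of all regions, and 0 of these 22 were listed, which allows a share of up to 13.6%. Among all regions at gene ends 1.32% were up and 0.616% were down, so that a share of 0 in 22 is not distinguishable from these. Inside the gene but farther from its ends, 3 of 65 regions of the factors were up and 2 were down, 4.62% and 3.08%, against 4.16% and 1.63% of all such regions. More than 10 kb outside lay 96 regions of the factors, of which 14 were up (14.6%) and 2 were down (2.08%). In the same class of all regions 6.02% were up and 1.69% were down. Of the 14 distant up regions Maf had 7, Jun 4, Bach1 2 and Fosl2 1. Between 1 and 10 kb outside were 15 regions, 0 of them listed, which allows a share of up to 20% and is not distinguishable from the 4.69% up and 0.95% down of all such regions.

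Widths of the factors' regions were compared with those of the series. The 198 regions had a median of 457.5 bp (interquartile range 293.5 to 701.75 bp), against 400 bp (252 to 653 bp) for all. The 17 up regions of the factors had a median of 430 bp and reached from 292 to 633 bp, and the 3845 up regions of the series had a median of 453 bp. The 4 down regions ranged from 443 to 927 bp, with a median of 667 bp, against 537 bp for all 1275. Of the 23 regions at least 1000 bp wide 0 were listed, which allows a share of up to 13% and is not distinguishable from the 1.63% of all regions this wide.

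**Figure D4:**
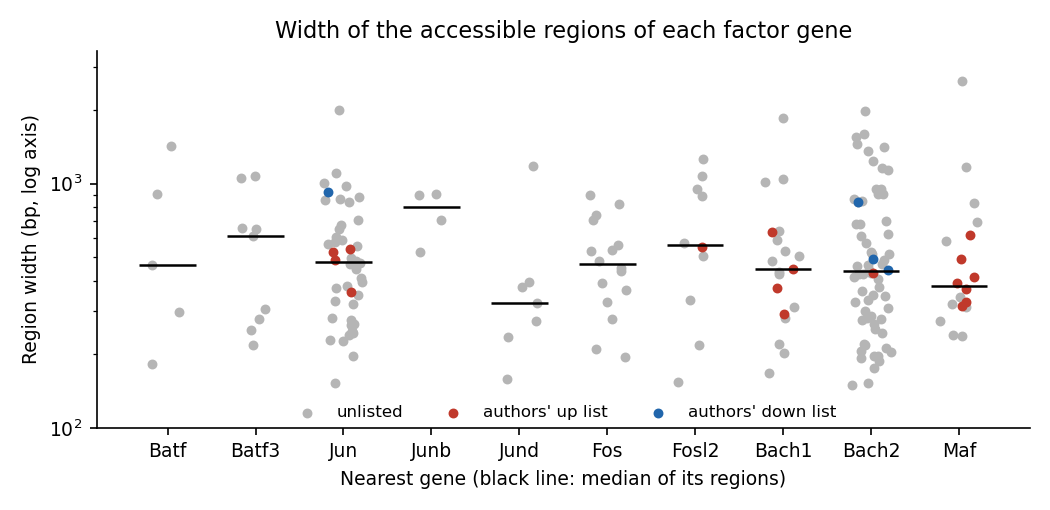
Width in bp, on a log axis, of every region nearest to each factor gene, coloured by list, with the median of each gene as a black line. The 17 up regions lie between 292 and 633 bp, and the widest region, 2629 bp at Maf, is unlisted.

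Related genes were counted from 2 lists. The first held 22 bZIP factors and partners that are not among the 10, such as Atf3, Mafk, Nfe2l2, Irf4 and Irf8. All 22 had a region, 200 in total with a median of 6 per gene, of which 1 was up (0.5%) and 5 were down (2.50%). Of all regions 4.21% were up and 1.40% were down, so the up share of these factors was below that of all regions and the down share above it, a difference that was not tested. Listed regions were nearest to 4 of the 22. Creb1, whose protein binds the cyclic AMP response element, had 2 down regions, 46.0 and 4.85 kb away, and the 1 up region, 24.9 kb away. Irf8, a partner of BATF proteins at composite elements, had 1 down region of 644 bp at chr8:120737186-120737829, within 1 kb of a gene end. Atf7 also had 1 down region within 1 kb of an end, and Nfe2l2, a factor of the oxidative stress response, had 1 inside the gene. Neither list held any of the 7 regions of Irf4 or the 10 of Atf3.

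The second list held 12 kinases and phosphatases upstream of AP-1. Of their 132 regions 4 were up (3.03%) and 2 were down (1.52%). Dusp10, a phosphatase of the JUN kinases, had 3 up regions of 15, at 56.7, 67.1 and 201 kb. Map3k1 had 1 up region 8.32 kb away. Dusp5 had 1 down region, inside the gene. These shares were near those of all regions or rested on few regions.

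The motif that these factors bind was then counted in the promoter sequence of accessible regions, a comparison of the lists chosen after the motif counts above. Sequence was at hand only where a region shared at least 50 bases with a RefSeq promoter window, which held for 10528 regions, and each was used once with the shared bases only. Sequence of other regions, the distant up regions of Maf and Jun among them, was not analysed here. The 32851 windows include genes that are not protein-coding, as 17491 protein-coding genes had a RefSeq start. The shares below are therefore not of protein-coding genes only. The AP-1 motif TGANTCA was in 26 of 114 up regions, 22.8% (95% Wilson interval 16.1 to 31.3%). It was in 2 of 38 down regions, 5.26% (1.46 to 17.3%), and in 517 of 10376 unlisted regions, 4.98% (4.58 to 5.42%). Per kb of sequence this was 1.02 matches in up, 0.196 in down and 0.186 in unlisted regions. The interval of the up regions lay above that of the unlisted ones and overlapped that of the down regions. Regions are not replicates, and these intervals cover counting error only.

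With G or C in the centre, as TGAGTCA or TGACTCA, the motif was in 22 of the 114 up regions (19.3%), 1 of the 38 down regions (2.63%) and 3.76% of the unlisted. The cyclic AMP response element TGACGTCA, which CREB and ATF proteins bind, was in 1 of 114 up regions (0.877%), 0 of 38 down regions and 3.19% of unlisted regions. GGGCGG, bound by SP1, was in 34.2% of up, 31.6% of down and 63.4% of unlisted regions. Base composition moved with the lists: the median GC content was 52.7% in up, 51.9% in down and 61.3% in unlisted sequence. In sequence of up to 57.3% GC, TGANTCA was in 23 of 73 up regions (31.5%, 22 to 42.9%), 1 of 25 down regions (4%, 0.710 to 19.5%) and 286 of 3500 unlisted regions (8.17%, 7.31 to 9.13%). Above that GC content the up regions were few. In the middle class the motif was in 2 of 29 up regions (6.90%, 1.91 to 22%), 0 of 5 down regions and 4.31% of unlisted regions. In the class of highest GC content it was in 1 of 12 up regions (8.33%, 1.49 to 35.4%), 1 of 8 down regions and 2.40% of unlisted regions. In both of these classes the interval of the up regions held the share of the unlisted ones. In the class of lowest GC content GGGCGG was in 12.3% of up and 32.3% of unlisted regions. In the middle class these shares were 65.5% and 70%, and in the highest 91.7% and 88.5%.

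**Figure D5:**
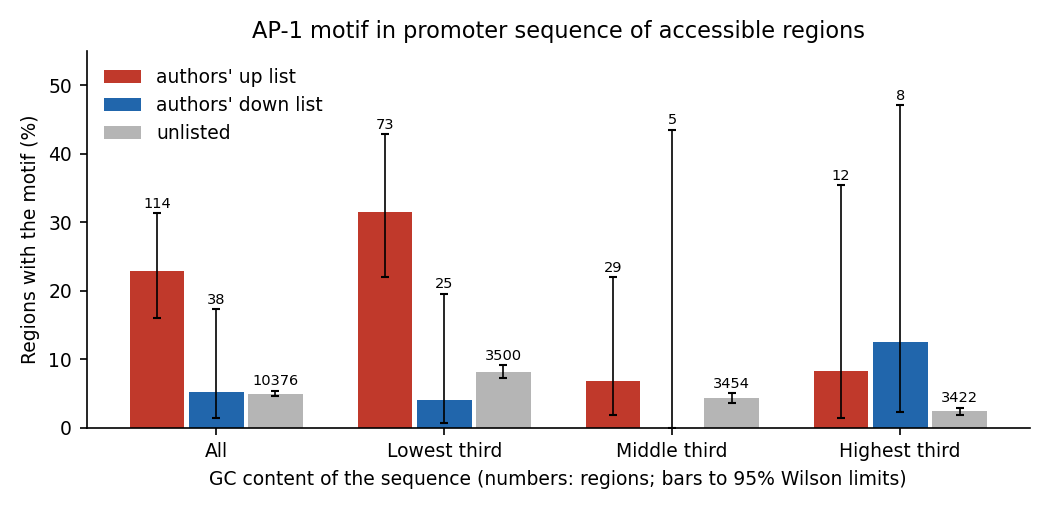
Percentage of accessible regions whose promoter sequence holds TGANTCA, by list, for all sequences and for 3 classes of GC content, with 95% Wilson intervals and the number of regions above each bar. Up regions stand at 22.8% of 114 overall and 31.5% of 73 in the class of lowest GC content, against 4.98% and 8.17% of unlisted regions.

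The composite element in which GAAA is joined to TGANTCA, recognised by BATF with IRF4 or IRF8, was in 4 of the 114 up regions, 3.51% (1.37 to 8.68%). It was in 0 of the 38 down regions, which allows a share of up to 9.18% by the Wilson interval, and in 5 of the 10376 unlisted regions, 0.0482% (0.0206 to 0.113%). The other form, with TTTC spaced from TGANTCA, was in 0 up, 0 down and 7 unlisted regions. The long Maf recognition element was in 0 regions. The 4 joined elements of up regions are shown with 10 bases on either side, on the strand of the gene, with the element in capitals. In Gm39853, Gm40007 and Upp1 it reads in the opposite direction, with TTTC after the AP-1 motif.

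Ccr4: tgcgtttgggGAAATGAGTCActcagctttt
Upp1: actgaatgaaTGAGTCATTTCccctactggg
Gm39853: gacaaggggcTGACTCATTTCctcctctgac
Gm40007: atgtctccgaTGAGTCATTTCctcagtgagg

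They lie at chr9:114496671-114496701 (minus strand) for Ccr4, a chemokine receptor gene, and chr11:9117953-9117983 (plus strand) for Upp1, which encodes a uridine phosphorylase. Those of the gene models Gm39853 and Gm40007 lie at chr2:75613283-75613313 (plus strand) and chr2:172276392-172276422 (minus strand). Their AP-1 cores began 143 bases before the start of Ccr4, 140 before that of Upp1, 99 before that of Gm39853 and 199 before that of Gm40007. The 302 bp up region at Ccr4 and the 1077 bp up region at Upp1 each covered the element.

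Single AP-1 motifs are shown for genes picked, after the values were seen, because they act in cytotoxic lymphocytes or carry the motif more than once. Up regions held AP-1 motifs not joined to GAAA at 22 genes, many of them gene models, so the genes shown do not stand for the rest. Dclk1 also carried a pair in an up region, 59 and 20 bases before its start, and is not shown. Adgrg1, which encodes the NK cell receptor GPR56, and Emp1, a membrane protein gene, each had a pair. Havcr2 encodes the inhibitory receptor TIM-3. Vwa7 is given from the down list. Capitals mark TGANTCA.

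Adgrg1, distal: ttgccaggccTGAGTCAcgggcatccc
Adgrg1, proximal: gagaaagccaTGACTCAcagttagcca
Emp1, distal: tctgtgtgtcTGAGTCAgagggagcta
Emp1, proximal: aaatccagacTGATTCAtagaaactcc
Havcr2: tcctttttgtTGATTCAtgtaataaac
Vwa7: gtgccaggccTGAGTCAcggtgctctg

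The motifs began 141 and 59 bases before the start of Adgrg1, in an up region of 304 bp at chr8:94984214-94984517. Those of Emp1 began 145 and 25 bases before the start, in an up region of 704 bp at chr6:135362431-135363134. The motif of Havcr2 began 200 bases before the start, in an up region of 559 bp at chr11:46454554-46455112, and that of Vwa7 95 bases before the start, in a down region of 719 bp at chr17:35016424-35017142. All these sequences were read on the plus strand. A match in sequence is a description and does not show binding by any of the factors.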

How the data were processed

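ATAC-seq of 4 samples, 2 per dose of IL-15, was grouped by the dose in the sample titles. Per the submitters' processing notes, which give no roles or order, BWA, ArchR, MACS2 and HOMER 4.11.1 and the build mm10 were named. Pooling, test, thresholds and reference dose are not given in the sources used here. The deposited tables hold region positions and widths (bp) only. The unit of every value the authors deposited is therefore a coordinate or a width, and the fits planned on counts per sample were not possible.

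Starts of the region list were raised by 1, so that all positions are 1-based. Listed regions were matched by identical coordinates. Genes and promoter sequences came from RefSeq tables of GRCm38.p6, the assembly that mm10 denotes. Their fit was checked: a region overlapped 41.6% of promoter windows, and 4.77% and 4.81% after windows were moved by 100 kb either way. Distances run from the region's nearer edge. Exons and introns were not annotated. Intervals are 95% Wilson intervals; where a count is 0 the share allowed is 3 counts of the total, unless said otherwise. The stretch nearest to a gene ends midway to its neighbours, for genes that overlap no other. Motifs were searched on both strands. Values of 1 related gene are not reported here. No test was run. The members and lists were chosen with earlier results of these data known. Named are all members, each of their listed regions, their widest and 5′ regions, related genes with a listed region and the 3 genes most like the member with most listed regions. Assignment and motif search were tested on simulated data (2000 regions, 500 sequences). Python 3.11.15, numpy 2.4.6, pandas 2.3.3 and scipy 1.17.1 were used.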

Additional observations from a re-analysis of the deposited data

How the results depend on the processing

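No paired analysis was possible because the lists give positions without any value for a sample. The count test of the doses, its block, another normalization, no count filter and leaving out replicates were not run for the same reason, nor were stricter thresholds on the authors' calls.

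The numbers of regions and calls depended on how regions were given to genes. Nearest gene of any biotype left 103 regions (72.8% within the gene), with 4 up and 2 down in 3 and 1 members, since 15 of the 21 listed regions lay nearer to a gene that is not protein-coding, for Maf all 7. Counting only regions inside a gene or within 10 kb gave 108 regions (73.1% within the gene), with 3 up and 2 down in 2 and 1 members, and within 50 kb 9 up and 2 down, the latter in 1 member. Using the nearest RefSeq 5′ end, which Maf lacks, gave 12 up and 3 down of 189. Distance from the centre, the overlap rules and leaving out the narrowest 10% of regions moved none of the members' counts by over 1.5 times. The down share without Bach2 was 0.758%, and the up share ranged from 5.56% without Maf, over 1.5 times lower than with it, to 12.1% without Bach2. Under the other assignments the up share was 3.88% (any biotype), 2.78% (within 10 kb) and 4.35% (within 50 kb). The alternatives for these shares, the related lists and the promoter regions were chosen after the data were seen. The share of regions at promoters with TGANTCA was 31.5% of up and 8.17% of unlisted regions in the class of lowest GC content, and 3.76% of unlisted regions with G or C in the centre. The cause was not tested.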
